A study of Mus musculus with 12 samples.

Results

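The expression of 8 genes of glucose and fructose handling, Slc2a2, Gckr, Khk, Pklr, Mlxipl, Txnip, Pck1 and G6pc, was measured in liver RNA of female C57BL/6N mice. They were taken as all probes whose transcript accession maps to these 8 symbols in RefSeq, which gave 10 probes of the 39429 on the array and 8 of the 20886 genes that could be named. This rule uses no measured value, but the genes were chosen with earlier results of these data known. Of the 8 genes, 0 passed the test between any of the diets compared, and the difference of each gene is therefore given with its interval. Over the 12 mice, Khk and Pklr varied together (r = 0.91). On deviations from the group means r was 0.88, which did not pass after adjustment (exact permutation, adjusted p = 0.130).

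The liver takes up glucose and fructose from the portal blood through the transporter Slc2a2 (GLUT2), and traps them by phosphorylation. Khk (ketohexokinase) does this for fructose, and Gckr is a regulatory protein of sugar phosphorylation that responds to the fructose phosphate Khk makes. Sugar phosphates activate Mlxipl (ChREBP), a transcription factor known to switch on genes of glycolysis and lipid synthesis, among them the liver pyruvate kinase Pklr, and Txnip. In fasting the flow turns to glucose output, which depends on Pck1 (phosphoenolpyruvate carboxykinase) and on G6pc, the catalytic subunit of glucose-6-phosphatase. Starch releases glucose, and sucrose releases glucose and fructose.

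The study fed 4 groups of mice a normal formula diet for 6 months, and 3 livers of each group were put on arrays. Ctrl mice had corn starch and sucrose as carbohydrates, and RS mice the same with resveratrol mixed in. For DJ mice Dongjin rice took the place of the starch and the sucrose, and for DJ526 mice this was done with rice of the line DJ526, a Dongjin rice that carries the stilbene synthase gene of peanut and makes resveratrol. DJ526 against DJ therefore holds both the resveratrol and the transferred gene, and rice against starch and sucrose holds the loss of sucrose together with all else that differs between rice and purified starch. The mice were bought at 6 weeks of age, kept for 2 weeks before the diets began, and killed after 6 months on them. The feeding state and hour at which the livers were taken, and the cage of each mouse, were not given in the sources used here. The study states that mice shared cages and that cages were assigned at random to the groups. Mice of a group may therefore share a cage, and cage and diet cannot be told apart.

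One-colour arrays with 43020 spots for genes were used, 1 array per mouse. Of the spots, 73.0% to 80.8% were well above background on an array, and 0 were saturated. Values are log2 of the processed signal of a probe minus log2 of the 75th percentile of its array, so that 1 unit is a doubling and 0 is the level of that percentile. All 10 probes were well above background on all 12 arrays. Levels of one probe cannot be set against those of another, because probes differ in brightness. The summed level of 10 hepatocyte markers (Alb, Apoa1 and others) was 11.85 to 11.96 in Ctrl, 11.93 to 12.01 in RS and 11.81 to 11.91 in DJ526, and higher in all DJ mice (12.02 to 12.11), and all 10 markers were well above background on every array. In DJ526 against DJ, 5 of the 10 were lower without overlap, where 18.4% of probes did not overlap in either direction. Against Ctrl, 4 were higher without overlap in DJ (9.36% of probes) and 3 in RS (10.2%), while in DJ526 1 was higher and 3 were lower (20.6%). In DJ526 against RS 3 were lower (11.1%). The part of this in the differences below was not tested. In whole tissue, fewer cells of a type and less RNA per cell cannot be told apart.

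The arrays came on 3 slides of 4 arrays. Slide 1 held Ctrl 1 to 3 and DJ 1, slide 2 held DJ 2, DJ 3, RS 1 and RS 2, and slide 3 held RS 3 and the 3 DJ526 mice. Diet and slide thus went largely together, and only DJ against Ctrl on slide 1, DJ against RS on slide 2 and DJ526 against RS on slide 3 can be read within a slide. The study's supplementary sample table swaps the array identifiers of RS and DJ relative to the labels, which were followed here.

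The promoters of 3 of the genes are printed because Khk and Pklr varied together and because Pklr and Pck1 are textbook targets of sugar and fasting signals. Each runs from 250 bases before to 50 bases after a transcript start, on the plus strand of GRCm38.p6, as RefSeq gives it, with motif matches in capitals. The first is Pklr at chr3:89136373-89136672, the second is Khk at chr5:30921309-30921608, and the third is Pck1 at chr2:173152823-173153122.
Pklr: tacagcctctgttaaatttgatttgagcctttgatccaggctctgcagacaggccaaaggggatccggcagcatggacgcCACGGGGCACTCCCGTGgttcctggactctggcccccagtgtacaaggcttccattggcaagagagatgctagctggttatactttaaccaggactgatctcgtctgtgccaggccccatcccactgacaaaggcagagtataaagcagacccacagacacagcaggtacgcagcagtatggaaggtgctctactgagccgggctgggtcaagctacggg
Khk: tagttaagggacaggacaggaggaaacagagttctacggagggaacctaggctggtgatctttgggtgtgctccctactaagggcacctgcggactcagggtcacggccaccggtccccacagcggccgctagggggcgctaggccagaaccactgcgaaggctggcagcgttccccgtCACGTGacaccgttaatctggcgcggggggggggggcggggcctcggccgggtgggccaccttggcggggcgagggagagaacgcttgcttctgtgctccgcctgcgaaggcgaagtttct
Pck1: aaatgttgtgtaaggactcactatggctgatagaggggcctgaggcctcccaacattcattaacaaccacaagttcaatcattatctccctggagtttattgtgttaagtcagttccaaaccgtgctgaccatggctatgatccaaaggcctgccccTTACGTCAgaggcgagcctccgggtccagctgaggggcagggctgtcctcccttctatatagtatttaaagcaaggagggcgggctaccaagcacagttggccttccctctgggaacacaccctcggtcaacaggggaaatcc

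In the Pklr window the capitals mark a match to the carbohydrate response element, the site bound by Mlxipl with its partner Mlx, that starts 170 bases before the transcript start. Such a match was found in 39 of 32851 promoters of the same length, or 0.119%, and in 1 of the 10 promoters of the 8 genes. In the Khk window they mark the E box CACGTG 71 bases before the start, a shorter motif that 7.15% of promoters hold and that also stands in 1 of the 2 Mlxipl promoters. In the Pck1 window they mark TTACGTCA 93 bases before the start, a form of the cyclic AMP response element that 0.499% of promoters hold. The form TGACGTCA, in 1.79% of promoters, was in 0 of the 10. Both strands were searched. The match in Pklr and the CACGTG in Khk were each found on both strands at the same place, and each of these windows held matches at a single place only. These matches are letters in a window and were not tested as sites of binding.

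Slc2a2 lies on chromosome 3 at 28697903 to 28728361 (GRCm38.p6, as for the other genes below). Its level was 4.80, 4.58 and 4.72 in the Ctrl mice, 4.45, 4.69 and 4.58 in RS, 4.16, 4.63 and 4.38 in DJ, and 4.38, 4.76 and 4.73 in DJ526. The lowest mouse was DJ 1 and the highest Ctrl 1, and every group overlapped with every other. The means ran from 4.39 ± 0.233 in DJ (SD, n = 3) over 4.57 ± 0.121 in RS and 4.62 ± 0.210 in DJ526 to 4.70 ± 0.114 in Ctrl.

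Gckr, on chromosome 5 at 31297266 to 31327302, had the smallest SD within groups of the 8 genes (0.145). Its level was 5.98, 6.09 and 5.74 in Ctrl, 5.91, 5.95 and 6.05 in RS, 5.98, 6.28 and 6.00 in DJ, and 5.83, 5.89 and 6.10 in DJ526. The lowest and the highest of the 12 mice, Ctrl 3 and DJ 2, were 1.45-fold apart, and the means of the groups, 5.94 in Ctrl and DJ526, 5.97 in RS and 6.09 in DJ, differed by no more than 0.15.

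Khk, on chromosome 5 at 30921436 to 30931248, feeds fructose into the liver's metabolism. Its level was 7.20, 7.67 and 7.54 in Ctrl, 7.09, 7.46 and 7.13 in RS, 7.01, 7.57 and 7.12 in DJ, and 6.98, 7.38 and 7.17 in DJ526. Of the 9 mice on the other diets, 6 lay below the lowest Ctrl mouse, but each of these groups had 1 mouse above it. The Ctrl mean was 7.47 ± 0.243, and those of RS, DJ and DJ526 were 7.23 ± 0.206, 7.23 ± 0.296 and 7.18 ± 0.199.

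Pklr, on chromosome 3 at 89136122 to 89146815, makes pyruvate in the last step of glycolysis. Its level was 0.98, 1.89 and 1.91 in Ctrl, 0.61, 1.20 and 1.18 in RS, 0.36, 1.50 and 1.10 in DJ, and 0.50, 1.36 and 0.89 in DJ526. All 9 mice on the other diets lay below the Ctrl mean of 1.59 ± 0.533, and 4 of them lay below the lowest Ctrl mouse, which itself stood well under the other two. The means of RS, DJ and DJ526 were 1.00 ± 0.335, 0.99 ± 0.579 and 0.92 ± 0.428.

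Mlxipl, on chromosome 5 at 135089890 to 135139768, encodes the sugar-sensing factor itself. By its brighter probe the level was 5.72, 6.21 and 5.73 in Ctrl, 5.46, 5.76 and 5.76 in RS, 6.10, 5.92 and 5.43 in DJ, and 5.55, 5.62 and 5.65 in DJ526. The 3 DJ526 mice lay close together (mean 5.61 ± 0.0521) and below all 3 Ctrl mice (mean 5.89 ± 0.279). The dimmer probe showed another picture, with means of 2.35 ± 0.315 in Ctrl and 2.42 ± 0.264 in DJ526, overlapping mice and r = -0.08 with the brighter one over the 12 mice, and which transcripts each probe reads was not tested.

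Txnip, on chromosome 3 at 96557957 to 96561857, encodes an arrestin-like protein that limits glucose uptake. It varied most of the 8 genes. Its level was 3.15, 1.93 and 2.87 in Ctrl, 2.41, 3.90 and 2.19 in RS, 2.26, 2.41 and 3.39 in DJ, and 4.00, 2.80 and 3.12 in DJ526. Ctrl 2 and DJ526 1, the lowest and highest mice, were 4.18-fold apart, and RS alone spanned most of that range. A second, dimmer Txnip probe ran together with this one (r = 0.99 over the 12 mice). DJ526 had the highest mean (3.30 ± 0.619), before RS (2.83 ± 0.930), DJ (2.68 ± 0.612) and Ctrl (2.65 ± 0.638).

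Pck1, on chromosome 2 at 173153073 to 173159274, makes phosphoenolpyruvate on the path from pyruvate back to glucose. Its level was 7.30, 7.03 and 7.28 in Ctrl, 7.06, 7.47 and 7.20 in RS, 7.21, 7.35 and 7.48 in DJ, and 7.31, 7.41 and 7.56 in DJ526. Every DJ526 mouse lay above every Ctrl mouse, the closest pair being 7.31 and 7.30. The means stood in the order Ctrl (7.21 ± 0.150), RS (7.24 ± 0.211), DJ (7.34 ± 0.137) and DJ526 (7.43 ± 0.126), with neighbours in that order closer than the SD within a group.

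G6pc, on chromosome 11 at 101367716 to 101377903, frees glucose for export. Its level was 5.56, 5.81 and 5.96 in Ctrl, 5.42, 6.21 and 5.12 in RS, 5.90, 5.96 and 5.79 in DJ, and 6.03, 5.55 and 5.29 in DJ526. The highest and the lowest of the 12 mice, RS 2 and RS 3, were both in the RS group and 2.12-fold apart. The DJ mice were closest to each other (mean 5.88 ± 0.0849), against 5.78 ± 0.201 in Ctrl, 5.58 ± 0.558 in RS and 5.62 ± 0.373 in DJ526.

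**Figure D1:**
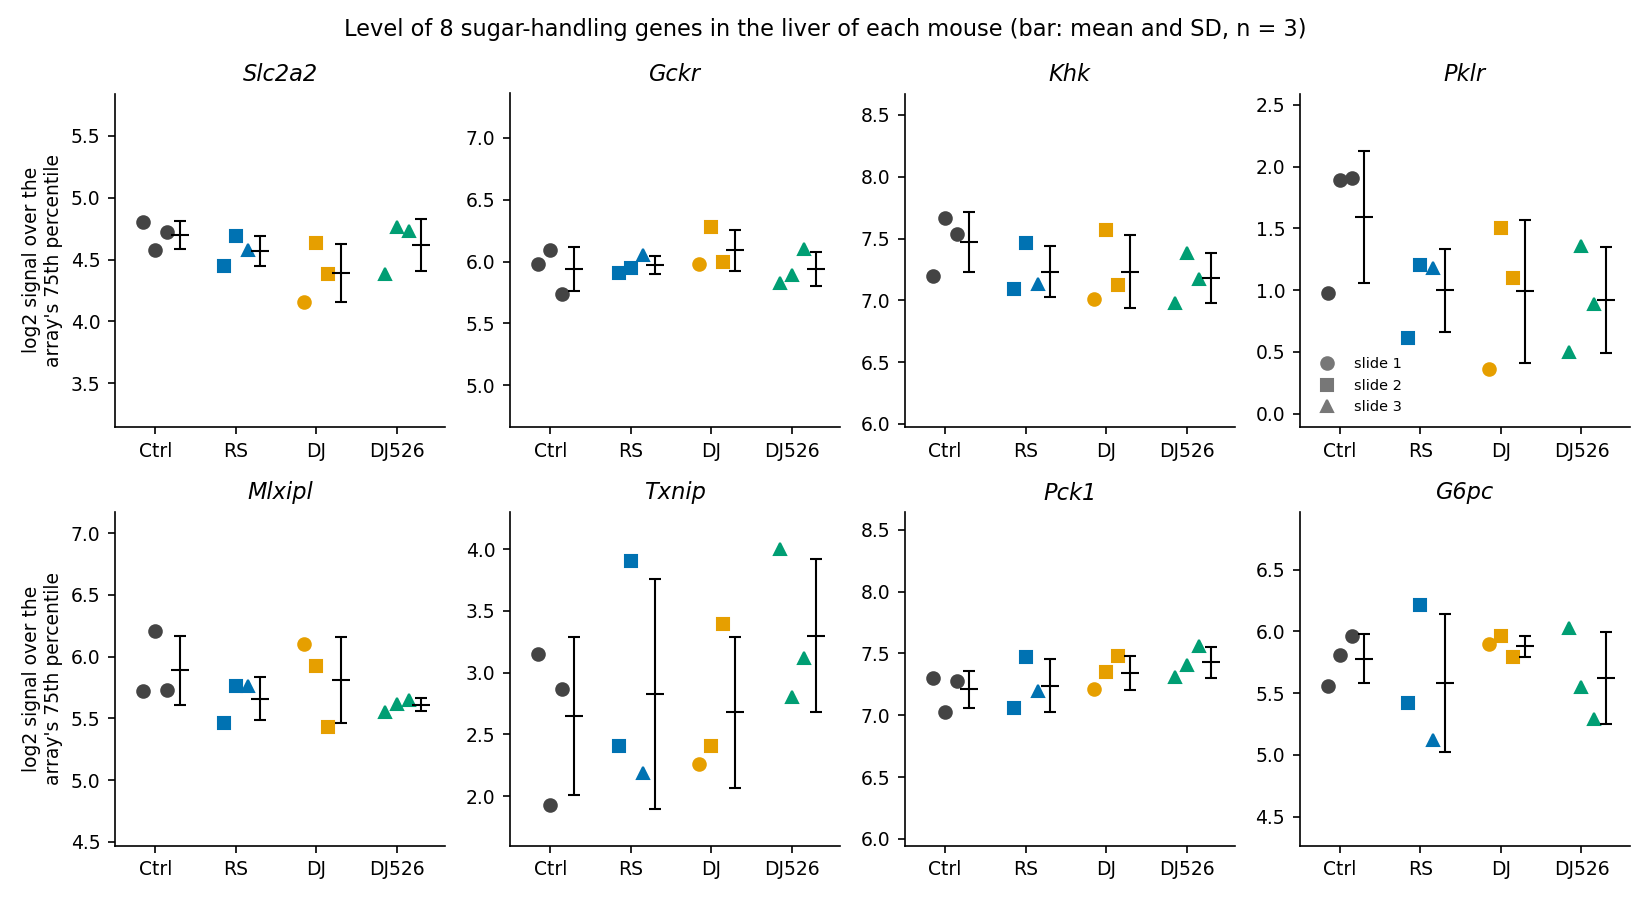
Level of the 8 genes in each of the 12 mice, as log2 signal over the 75th percentile of the array, by diet group, with the slide shown by the shape of the point and the mean and SD of each group (n = 3) beside it; every panel spans the same number of log2 units. Txnip and Pklr spread widest within the groups. The DJ526 mice lay above all Ctrl mice in Pck1 and, by the brighter of its probes, below all of them in Mlxipl.

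The mice on rice were first compared with those on starch and sucrose, 6 against 6, which asks whether the carbohydrate source moved genes of sugar handling. Pck1 came closest to a difference, at 0.16 higher on rice (log2, SE 0.0865, 95% interval -0.03 to 0.35, exact two-sided permutation p = 0.0823, where the smallest p of this design is 0.00216). Pklr stood at -0.34 (SE 0.239, interval -0.87 to 0.18), Khk at -0.14 (SE 0.123, interval -0.42 to 0.13) and Slc2a2 at -0.13 (SE 0.0937, interval -0.34 to 0.08). Gckr (0.06, interval -0.12 to 0.23), Mlxipl (-0.06, interval -0.33 to 0.21), G6pc (0.07, interval -0.32 to 0.46) and Txnip (0.25, interval -0.52 to 1.03) completed the list. By limma, 0 of the 8 genes had an adjusted p under 0.05 (smallest adjusted p 0.976), where 0% of all probes did, and 0 had an unadjusted p under 0.05, where 4.56% of all probes did. For 0 of 8 genes the 6 rice mice lay wholly apart from the 6 others, against 0.127% of probes.

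These intervals bound the difference more tightly for some genes than for others. For Gckr the mean on rice was between 0.923 and 1.18 times that on starch and sucrose, and for Pck1 between 0.980 and 1.28 times. For Txnip the interval reached from 0.696 to 2.04 times, and for Pklr from 0.548 to 1.13 times. In this fit, which does not hold the slide, a doubling on rice was outside the interval of every gene but Txnip. A halving was outside the interval of all 8. These bounds do not carry over to a fit with the slide as a block, where Pklr stood at -0.75 (SE 0.304).

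Resveratrol added to the starch and sucrose diet (RS against Ctrl) went with a lower estimate for Pklr (-0.59, SE 0.337, interval -1.34 to 0.15), Khk (-0.24, SE 0.174) and Mlxipl (-0.23, SE 0.174). Slc2a2 stood at -0.12, G6pc at -0.19, Gckr at 0.03, Pck1 at 0.04 and Txnip at 0.18 (SE 0.499). Of the 8 genes, 0 passed the adjusted threshold of limma (smallest adjusted p 0.892), as did 0% of probes, and 0 had an unadjusted p under 0.05 (6.00% of probes). For 0 of the 8 the 3 RS mice lay apart from the 3 Ctrl mice, against 10.2% of probes.

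On Dongjin rice without resveratrol (DJ against Ctrl), Slc2a2 was at -0.31 (SE 0.132, interval -0.60 to -0.02). This was the 1 gene of 8 with an unadjusted p under 0.05 (adjusted p = 0.949, limma), where 5.20% of probes had one, and it did not pass the adjusted threshold, as 0 of 8 genes and 0% of probes did. The estimate was -0.19 without DJ 1, the lowest of the 12 mice. Pklr stood at -0.61 (SE 0.337, interval -1.35 to 0.14), Khk at -0.24, Gckr at 0.15, Pck1 at 0.14, G6pc at 0.10, Mlxipl at -0.07 and Txnip at 0.03. The DJ mice lay apart from the Ctrl mice in 0 of 8 genes, against 9.36% of probes.

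On resveratrol rice (DJ526 against Ctrl), the estimates were -0.67 for Pklr (SE 0.337, interval -1.42 to 0.07), -0.29 for Khk (SE 0.174), -0.28 for Mlxipl (SE 0.174, interval -0.66 to 0.11), 0.22 for Pck1 (SE 0.122, interval -0.05 to 0.49) and 0.65 for Txnip (SE 0.499, interval -0.44 to 1.75). Gckr stood at 0.00, Slc2a2 at -0.08 and G6pc at -0.15. The mice of the 2 groups did not overlap in 2 of the 8 genes, Mlxipl and Pck1, where 20.6% of probes did the same. The dimmer Mlxipl probe stood at 0.07, with overlapping mice. By limma 0 of the 8 passed the adjusted threshold (smallest adjusted p 0.501; 0.00507% of probes passed) and 0 had an unadjusted p under 0.05, against 10.8% of probes. Of 6 lymphocyte markers, all 6 had a higher mean in DJ526 than in Ctrl (median 0.90) and 3 did not overlap (20.6% of probes). This was not particular to DJ526. All 6 were also higher in DJ than in Ctrl (median 0.61, 0 without overlap). In RS 5 of the 6 were higher than in Ctrl (median 0.46, 2 without overlap, against 10.2% of probes). Of 7 Kupffer cell and macrophage markers, 0 were higher than in Ctrl in RS (median -0.32) and 0 in DJ (median -0.46). In DJ526 1 was higher (median -0.19), and 0 were without overlap in any of the 3. The part of the lymphocyte and Kupffer cell markers in the differences was not tested. The 3 comparisons above share the Ctrl mice, so that the low estimates of Pklr in all 3 rest in part on the same 3 livers. For rice against starch and sucrose, the Pklr estimate of -0.34 became -0.50 without Ctrl 1, which had the least Pklr of them (0.98). Leaving out Ctrl 2 or Ctrl 3 (1.89 and 1.91) moves it the other way, to a smaller difference.

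DJ526 was also set against DJ, which differ in the transferred gene and its resveratrol, and against RS, which differ in the carbohydrates and in the source of resveratrol. Against DJ, Txnip stood at 0.62 (SE 0.499, interval -0.48 to 1.72), Slc2a2 at 0.23 (SE 0.132, interval -0.06 to 0.52), G6pc at -0.26, Mlxipl at -0.20, Gckr at -0.15, Pck1 at 0.08, Pklr at -0.07 and Khk at -0.06. Of the 8, 0 passed the adjusted threshold of limma (smallest adjusted p 0.587, against 0.0101% of probes), 0 had an unadjusted p under 0.05 (9.84%) and 0 had mice that lay apart (18.4%). Against RS, Txnip stood at 0.47, Pck1 at 0.18 (SE 0.122) and the other 6 genes between -0.08 and 0.05. Here too 0 of 8 passed (smallest adjusted p 0.987, against 0.00761% of probes), 0 had an unadjusted p under 0.05 (5.52%) and 0 lay apart (11.1%).

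Whether resveratrol went with another difference on rice than on starch was tested as DJ526 minus DJ less RS minus Ctrl. Slc2a2 had the smallest p, at 0.36 (SE 0.187, interval -0.06 to 0.77, limma adjusted p = 0.863), followed by Gckr at -0.18 (SE 0.159) and Pklr at 0.53 (SE 0.477). For this difference of differences 0 of 8 genes passed the adjusted threshold, as did 0% of probes, and 0 had an unadjusted p under 0.05, against 6.09% of probes.

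**Figure D2:**
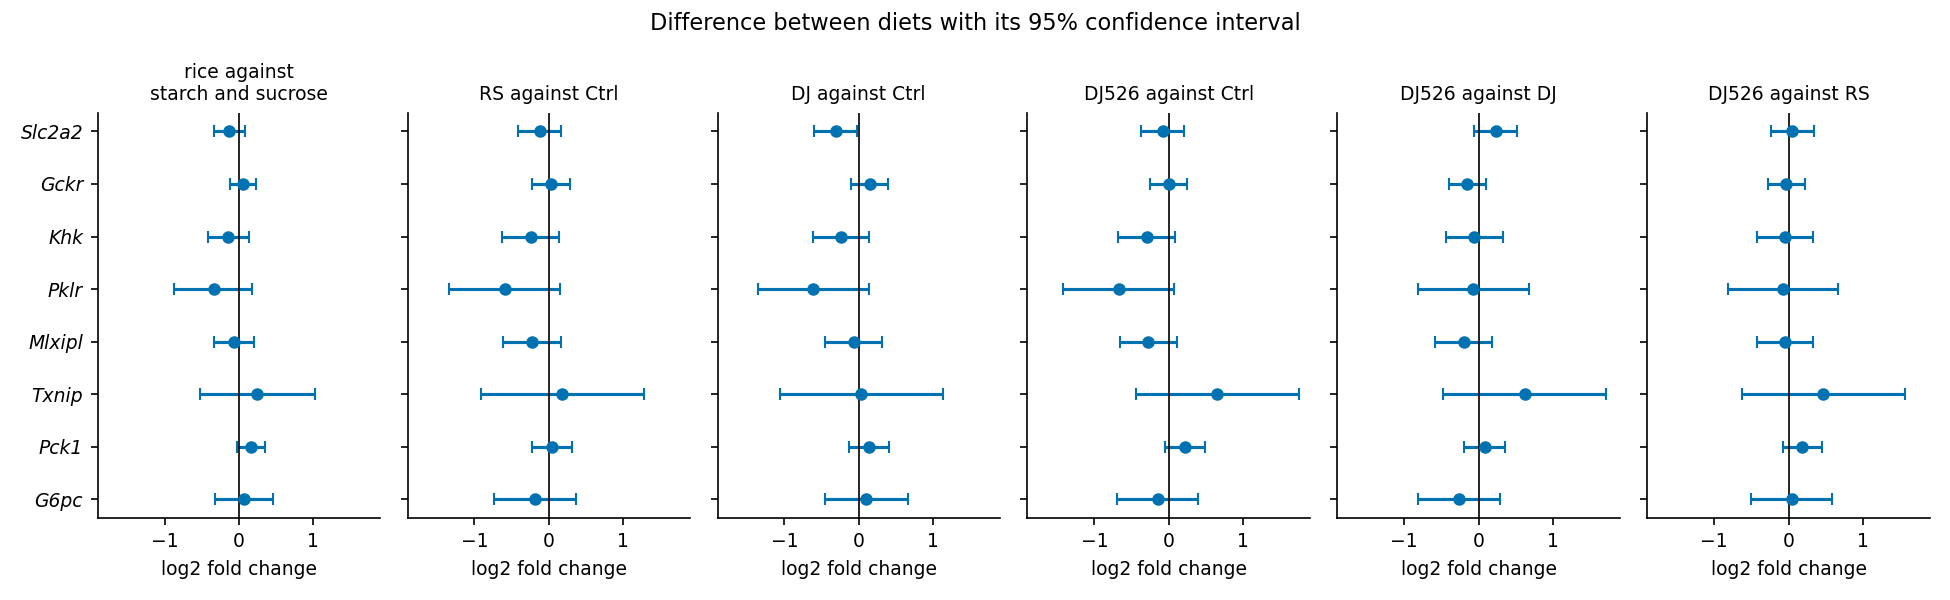
Difference between diets for the 8 genes in 6 comparisons, as log2 fold change with its 95% confidence interval from limma, with the line at 0 for no difference. Only the interval of Slc2a2 in DJ against Ctrl (-0.60 to -0.02) leaves out 0, and those of Txnip and Pklr are the widest.

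The slide moved with some of these values. Within slide 1, DJ 1 stood 1.23 below the mean of the 3 Ctrl mice in Pklr (a difference of -1.23), and the same contrast was -0.46 in Khk, -0.53 in Slc2a2 and -0.39 in Txnip. Within slide 2, the 2 DJ mice differed from the 2 RS mice by 0.39 in Pklr and -0.26 in Txnip, and by no more than 0.21 in the other 6 genes. Within slide 3, the 3 DJ526 mice differed from the single RS mouse by 1.11 in Txnip, 0.50 in G6pc and -0.26 in Pklr. With the slide as a block in the fit, Pklr stood at -1.62 for RS, -1.23 for DJ and -1.88 for DJ526 against Ctrl (adjusted p 0.363, 0.398 and 0.361), and 0 of the 8 genes passed in any comparison. Those 3 values rest on DJ 1, the only array that ties slide 1 to the other diets. Of the 56 differences over 8 genes and 7 comparisons, 15 turned in sign with this block. Mlxipl in RS against Ctrl went from -0.23 to 0.15 and Txnip there from 0.18 to -0.13. G6pc went from -0.19 to 0.07 in RS and from -0.15 to 0.57 in DJ526 against Ctrl, and from -0.26 to 0.44 in DJ526 against DJ. In DJ against Ctrl, Mlxipl went from -0.07 to 0.21 and Txnip from 0.03 to -0.39. Mlxipl in DJ526 against Ctrl, which is not among the 15, went from -0.28 to 0.00.

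The spread among mice of one diet decided how narrow an interval could be, and it differed widely among the 8 genes. Over 15564 genes well above background on all arrays, the median SD within groups was 0.181. Txnip (0.712) lay above 97.6% of these genes, Pklr (0.478) above 92.3% and G6pc (0.353) above 83.4%. Mlxipl (0.240) and Khk (0.239) lay above 66.0% and 65.8%, while Slc2a2 (0.177), Pck1 (0.160) and Gckr (0.145) lay under the median gene. The genes with the widest spread include both the Mlxipl targets named at the start, Pklr and Txnip. Khk and Slc2a2, which also stand on the list of ChREBP targets read below, were not among the widest. Of the pair of glucose output enzymes, G6pc spread widely, whereas Pck1 was among the steady ones.

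**Figure D3:**
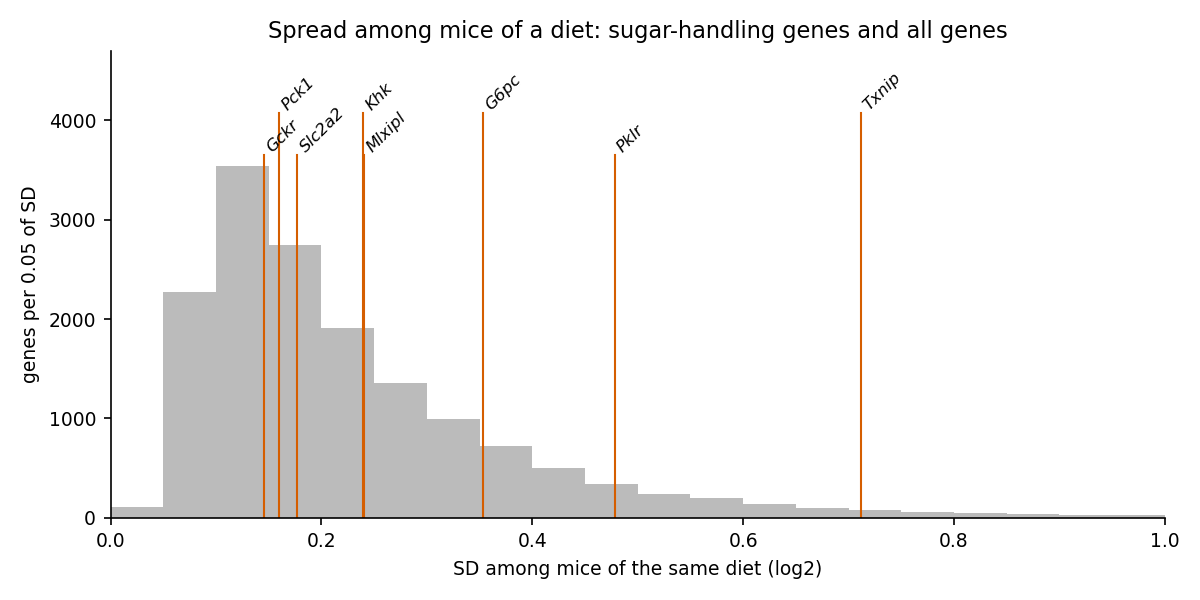
SD among mice of the same diet (log2, pooled over the 4 groups) for 15564 genes as a histogram, with a line for each of the 8 genes; 111 genes beyond an SD of 1 are not drawn. Txnip, Pklr and G6pc stand in the upper tail, and Gckr, Pck1 and Slc2a2 stand near the peak.

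Khk and Pklr varied together from mouse to mouse. Over the 12 mice r was 0.91 (permutation p = 3.00e-05, adjusted p = 0.000840 over 28 pairs) and rho 0.91 (permutation p = 0.000110, adjusted p = 0.00308), and r was 0.90 without Ctrl 3 and DJ 1, the mice farthest from the median of Pklr. DJ526 1 and DJ 1 were lowest in both genes, and Ctrl 2 and Ctrl 3 highest in Pklr and among the top 3 in Khk. On deviations from the slide means r was 0.91 (exact permutation p = 0.000579, adjusted p = 0.0162). On deviations from the group means r was 0.88 (exact permutation p = 0.00463), which did not pass after adjustment over the 28 pairs (adjusted p = 0.130). In all 4 groups mouse 1 was lowest in both genes, though nothing in the labels pairs mice by number. On deviations from the means of mice with the same number, chosen after seeing the data, r was 0.91 (exact permutation p = 0.00427, adjusted p = 0.120).

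Over the 12 mice, Khk and Pklr were the 1 pair of 28 that passed. Txnip and Pck1 had r = 0.67 (permutation p = 0.0174, adjusted p = 0.244; rho 0.68), Pklr and Slc2a2 0.60 (adjusted p = 0.313) and Mlxipl and Txnip -0.58 (adjusted p = 0.313). Mlxipl, whose product acts on Pklr, had r = 0.32 with Pklr (0.82 without Ctrl 3 and DJ 1) and 0.48 with Khk (0.06 without Ctrl 2 and DJ 2). Mlxipl was read here by its brighter probe alone, with which the other had r = -0.08. Without DJ 1 the pair of Khk and Mlxipl passed as well (r = 0.79, permutation test, adjusted p = 0.0231). The glucose output genes Pck1 and G6pc had r = 0.12 with each other. The 75th percentile of the array had r = 0.10 with Pklr and 0.04 with Khk. The summed level of 6 lymphocyte markers (2.04 to 3.01 over the mice, all 6 well above background) had r = -0.71 with Pklr, -0.56 with Khk and -0.65 with Slc2a2, and that of the hepatocyte markers -0.11, -0.05 and -0.21. Among the other cell types, erythroid markers had the largest r with Pklr (0.54), with 0.47 for Khk and 0.48 for Slc2a2. The part of these markers in the pattern was not tested.

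**Figure D4:**
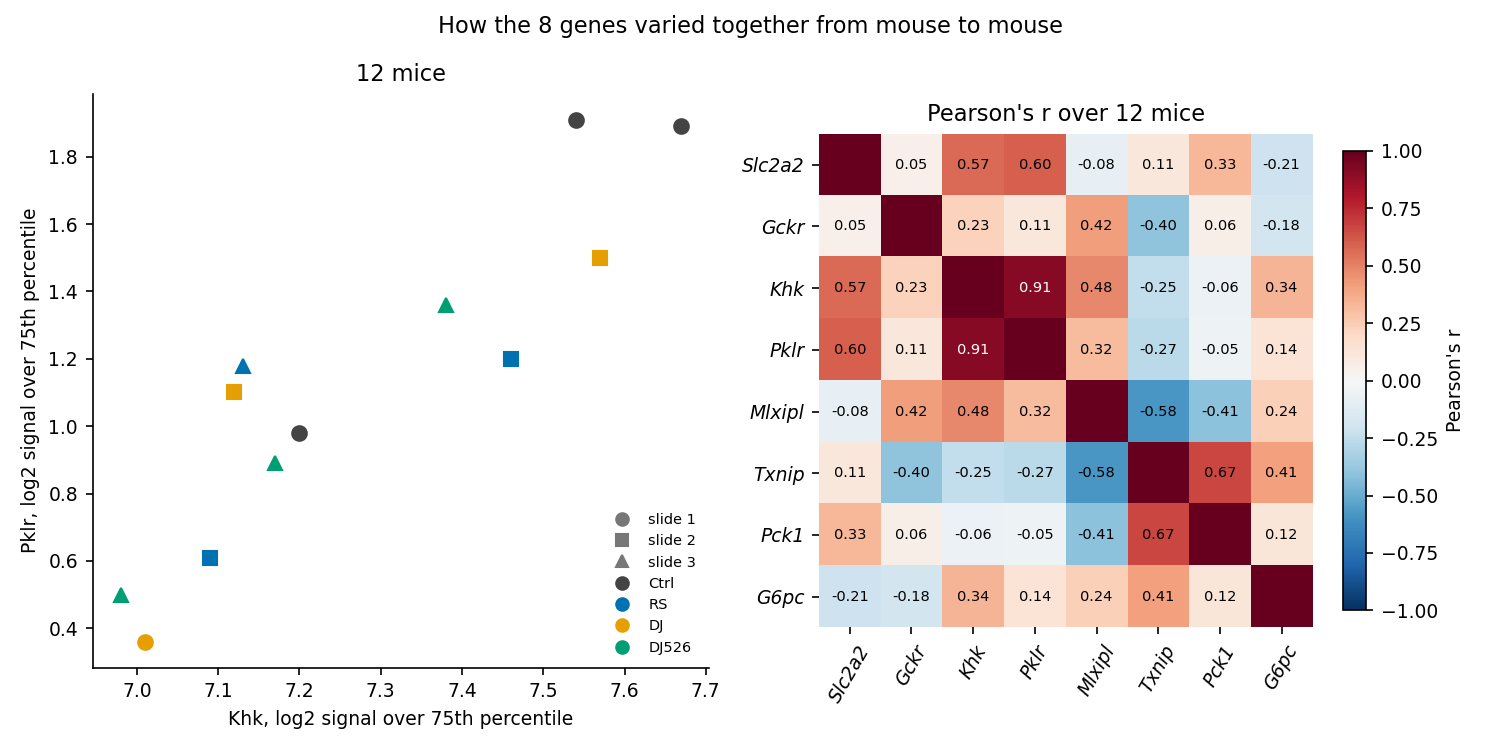
Left, level of Pklr against level of Khk (both log2 signal over the 75th percentile) in the 12 mice, coloured by diet with the slide as shape. Right, Pearson's r over the 12 mice for each pair of the 8 genes; the pair of Khk and Pklr has r = 0.91, and the others lie between -0.58 and 0.67.

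The genes whose level most resembled each of the 8 over the 12 arrays were looked up among 15563 others, as a description. For Khk they were Tkfc (r = 0.93), the triokinase that phosphorylates the glyceraldehyde made from fructose, then Pklr (0.91) and Pygl (0.89), the liver glycogen phosphorylase. For Pklr they were Abhd14a (0.96), Tram1 (0.93) and Ndufa8 (0.93), for Txnip Zfp36l2 (0.96), Prrc2b (0.91) and Arhgef3 (0.91), and for G6pc Trib2 (0.89), Lrwd1 (0.83) and Gm2518 (0.82). Pck1 was nearest to Ripk2 (0.91), Gne (0.89) and Pim3 (0.89), Mlxipl to Brix1 (0.91), Crls1 (0.88) and Zbtb24 (0.87), Slc2a2 to Ednrb (0.88), Ccdc58 (0.86) and Ecm1 (0.86), and Gckr to Gm839 (0.90), Lamtor2 (0.89) and Ercc6 (0.88). Every such r is the highest of many and comes from the same 12 arrays.

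Tkfc followed Khk closely in its values. Its level was 4.30, 4.60 and 4.71 in Ctrl, 3.89, 4.37 and 3.97 in RS, 3.88, 4.39 and 3.90 in DJ, and 3.80, 4.41 and 4.03 in DJ526. As with Khk, the mice RS 2, DJ 2 and DJ526 2 reached the range of the Ctrl mice, and the other 6 on those diets lay below it.

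Genes of carbohydrate metabolism around the 8 were read from 9 lists. Pklr went highest with the pentose phosphate pathway, which makes NADPH for lipid synthesis: of its 8 genes, 6 had r above 0.7 with Pklr (median r 0.78), namely Tkt (0.89), Pgd (0.88), G6pdx (0.79), Rpia (0.78), Rpe (0.78) and Pgls (0.74), against 1.89% of all 15563 genes. In glycolysis 6 of 25 others did, among them Pdhb (0.89), Tpi1 (0.87), Eno1 (0.85) and Gpi1 (0.80). Among ChREBP, its partners and targets, 3 of 15 did, namely Khk, Tkfc (0.89) and the lipogenic gene Thrsp (0.85). For Khk the highest values, after those of Tkfc, Pklr and Pygl, were those of Eno1 (0.85), Tkt (0.85), Rpia (0.79), Pdhb (0.79) and Gpi1 (0.77), and 109 of all 15563 genes had r above 0.7 with it.

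Of 13 clock genes, which mark time of day, 0 had r above 0.7 with Pklr, Khk, Gckr, Mlxipl, Txnip, Slc2a2 or G6pc. With Pck1 2 of the 13 did, Nr1d1 (0.81) and Ciart (0.78), against 0.630% of all genes, and Nfil3 had -0.70. By its brighter probe, with which the other one did not run together, Mlxipl had -0.76 with Dbp, -0.72 with Nr1d2 and -0.71 with Nr1d1. Pck1 and Txnip shared 2 high values among the ChREBP list, Rgs16 (0.84 and 0.80) and Klf10 (0.83 and 0.77). G6pc had r above 0.7 with 0 of 16 regulators of gluconeogenesis and fasting-responsive genes (median -0.03), with 0 of 16 others of gluconeogenesis, and with 0.366% of all genes. On the other lists it had 0.78 with Fgf21 and 0.75 with Pdk4.

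**Figure D5:**
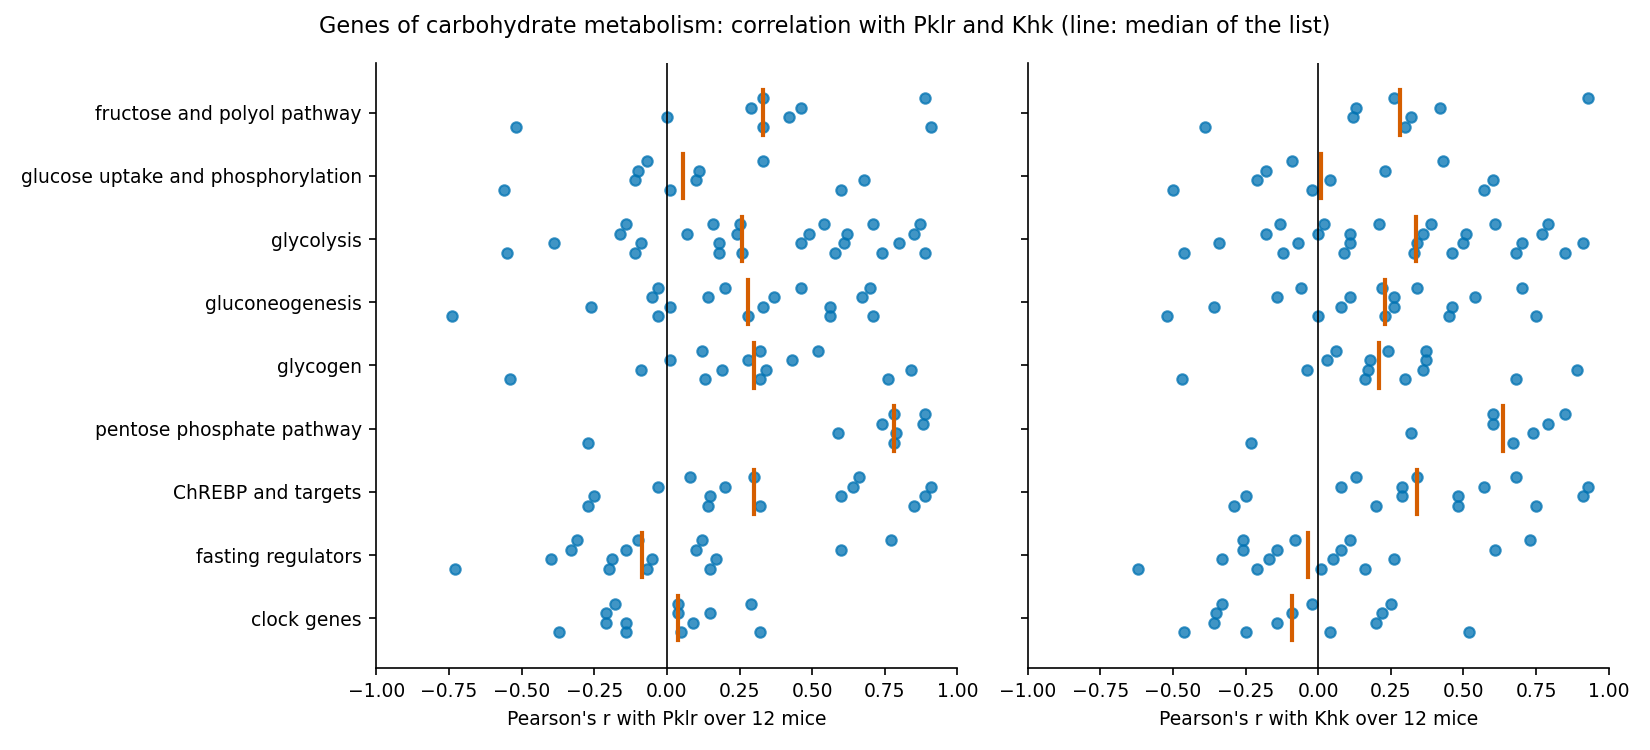
Pearson's r over the 12 mice of Pklr (left) and Khk (right) with every gene of 9 lists of carbohydrate metabolism and its control, 1 point per gene, with the median of each list as a line. The pentose phosphate pathway has the highest median for both (0.78 for Pklr and 0.64 for Khk).

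Between the diets, the lists gave 0 genes past the adjusted threshold of limma in any of the 7 comparisons, out of 125 genes in all. An unadjusted p under 0.05 was found for 3 of the 125 in rice against starch and sucrose, for 7 in RS, 7 in DJ and 10 in DJ526 against Ctrl, for 8 in DJ526 against DJ, for 4 in DJ526 against RS and for 4 in the difference of the effects of resveratrol. This share was above that of all probes in DJ against Ctrl (5.60% against 5.20%) and below it in the other 6 comparisons. The genes named below, apart from Tkfc, were picked among those whose mice did not overlap in a comparison. Their lack of overlap there was thus a condition of the choice. Of all probes, 10.2% did not overlap in RS, 9.36% in DJ and 20.6% in DJ526 against Ctrl, and 18.4% in DJ526 against DJ.

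In glycolysis, Gpi1, the isomerase that follows glucose phosphorylation, had the smallest p of the 125 genes in DJ526 against Ctrl. Its level was 5.68, 6.13 and 6.29 in Ctrl, 5.37, 5.45 and 5.07 in RS, 5.22, 5.55 and 5.53 in DJ, and 5.01, 5.47 and 5.14 in DJ526, so that every mouse of the other diets lay below every Ctrl mouse. Against Ctrl it stood at -0.74 for RS, -0.60 for DJ and -0.82 for DJ526 (SE 0.175; limma adjusted p 0.484, 0.791 and 0.138), none past the threshold, and the other 2 probes of Gpi1 gave -0.40 to -0.78, with 1 of them overlapping in DJ. Within slide 1, DJ 1 was at -0.81 against the Ctrl mice. By its brightest probe, Ldha (lactate dehydrogenase A) was at -0.23 in RS against Ctrl and at -0.19 in DJ526 against DJ, and did not overlap in either, with adjusted p of 0.683 and 0.468.

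Among genes of fructose handling and glucose uptake, Tkfc stood at -0.46 in RS, -0.48 in DJ and -0.46 in DJ526 against Ctrl (SE 0.194; limma adjusted p 0.801, 0.936 and 0.436), with overlapping mice. Slc2a9, a transporter of urate and hexoses, was at 0.46 in RS against Ctrl (SE 0.102, adjusted p = 0.437), with levels of 0.87, 1.02 and 1.22 in RS above 0.56, 0.52 and 0.65 in Ctrl.

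Around gluconeogenesis, Gpd1 (glycerol-3-phosphate dehydrogenase) stood at -0.71 in RS against Ctrl and -0.71 in DJ526 against DJ (SE 0.213; limma adjusted p 0.627 and 0.352), without overlap in either. Its levels were 5.68, 5.14 and 5.20 in Ctrl, 5.09, 4.72 and 4.10 in RS, 5.49, 5.69 and 5.61 in DJ, and 4.96, 4.81 and 4.90 in DJ526. The 6 mice given resveratrol in either form lay below the 6 that were not, the closest values being 5.09 and 5.14. This grouping was noticed after the values were seen and was not tested, and it would not hold with the RS and DJ arrays exchanged as in the supplementary sample table. Gpt (alanine aminotransferase) lay on the other side, at 0.33 in RS and 0.31 in DJ526 against Ctrl (adjusted p 0.622 and 0.297), also without overlap. Within slides, DJ stood 0.75 above RS in Gpd1 on slide 2, and the DJ526 mice stood 0.79 above RS 3 on slide 3.

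Of the clock genes, Per2 was at -1.03 in DJ against Ctrl (SE 0.168, limma adjusted p = 0.644). Its levels were -1.41, -1.60 and -1.67 in DJ, under all other 9 mice, which lay between -1.19 and -0.37. Per2 had r = 0.32 with Pklr and 0.25 with Khk.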

How the data were processed

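Liver RNA of 12 mice, 3 in each of 4 diet groups, was hybridised to one-colour arrays. The labels name Trizol and the study's methods an RNeasy kit for RNA extraction. Per the file headers, the intensities deposited by the authors came from Feature Extraction 11.5.1.1, whose processed signal is background-corrected. The deposited table of intensity values held the same processed signals multiplied by 1 factor per array (0.959 to 1.08), for 99.9% of probes within a tolerance of 0.0001, and served as an alternative.

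Outlier spots were dropped, spots of a probe averaged, and log2 taken after dividing by the 75th percentile of each array (952 to 1166). Probes were named through their accessions in the RefSeq table of GRCm38.p6, which named 27508 of 39429 probes (69.8%). The number of arrays limits the precision. Groups came from the sample titles. A linear model with 4 group means was fitted with limma 3.58.1 (R 4.3.3), with a variance trend and 8 residual degrees of freedom. Benjamini-Hochberg adjustment was made over 39429 probes at 0.05. The limma p-values measure the spread between mice of a group. The fit was checked on simulated data with 200 changed probes, for rice against starch and sucrose only. It recovered 26.5% of changes of 0.5 log2, 62% of changes of 1 and 86.5% of changes of 2, so many smaller changes were missed. Permutation tests were made with scipy 1.17.1, with 100000 permutations for each correlation over 12 mice and exact enumeration otherwise.

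The 8 genes, the 9 lists and their tests were chosen with earlier results of these data known. A gene was read by its brightest probe. From each list up to 3 genes were eligible for naming, those with the largest difference among genes whose mice did not overlap, and for each of the 8 the 3 genes with the highest r. Genes of the lists with a high r to one of the 8, and Tkfc in the diet comparisons, were named with their values already seen. Alternatives were other background correction, scaling, filtering, tests, probes, blocks, the exchange of RS and DJ, and leaving out each mouse. The replacement of outlying local backgrounds by the median of the array, under normexp, was chosen after seeing the data.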

Additional observations from a re-analysis of the deposited data

How the results depend on the processing

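No gene of the 8 passed the adjusted threshold in any of the 7 comparisons under any alternative (0 in all). Over all 56 differences, 15 turned with the slide as a block and 7 with RS and DJ exchanged (reported sizes up to 0.26), and 0 to 11 under each of the other 21 alternatives (sizes up to 0.19). In rice against starch and sucrose with Slc2a2 in DJ against Ctrl, 191 recomputed values kept their direction and 10 turned, all 10 in the former. There, with the slide as a block, Gckr was at -0.03 and Mlxipl at 0.03. With RS and DJ exchanged, Gckr was at -0.06, Slc2a2 at 0.05 and G6pc at -0.22, and with normexp on the median pixel G6pc was at 0.00. Leaving out 1 mouse at a time gave -0.13 to 0.04 for Mlxipl, positive without Ctrl 2 or DJ 3, and -0.04 to 0.23 for G6pc, negative without RS 3 or DJ526 1. The cause was not tested. For Slc2a2 in DJ against Ctrl, leaving out a mouse gave -0.43 to -0.19, with unadjusted limma p from 0.00845 to 0.172. The number of correlated pairs was 0 on deviations from the group means, and 1 to 2 on leaving out a mouse, with 2 without DJ 1. Nothing in the labels says that replicate numbers pair the mice, and over the 18 pairs of samples with the same number in different groups, deviations from the group means correlated at -0.273 to 0.258, and 4 of the 18 were above 0.1. With the replicate number as a block, 0 genes passed, and the unadjusted limma p in rice against starch and sucrose was 0.00380 for Pklr (-0.34) and 0.0292 for Khk (-0.14), both with an adjusted p of 0.981. Mouse 1 was lowest in 4 of 4 groups in both genes, and mouse 2 highest in 4 for Khk and 3 for Pklr. On deviations from the means of mice with the same number, chosen after seeing the data, the r of Khk and Pklr was 0.91 (exact permutation p = 0.00427, adjusted p = 0.120), and 0 pairs passed. With 3 mice a group and diets largely on slides of their own, differences smaller than the intervals given could not be detected, and slide and diet cannot be fully told apart.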
